A study of Homo sapiens with 22 samples.

Results

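The decay of labelled mRNA was followed in HEK293T cells, a human embryonic kidney line, in which ZNF598 was knocked down with a short hairpin RNA (shZNF598). Of the 22 BRIC-Seq libraries of the study, the 10 shZNF598 libraries taken at 0, 2, 4, 6 and 10 h of the chase make up this time course, with 2 libraries per time. ZNF598 is an E3 ubiquitin ligase that marks collided ribosomes. In BRIC-Seq, cells are fed bromouridine (BrU), a uridine analogue that is built into new RNA, and are then moved to medium without it, so that RNA pulled down with an anti-BrdU antibody at later times is what is left of the labelled pool. All cells were labelled with 150 µM BrU for 24 h and carried an shRNA. The cells with a control hairpin (shControl) were chased for the same times and serve here only for comparison. The sources used here do not say whether the knockdown cells were a single clone. Nothing says that the 2 libraries of a time came from separate cultures, so p-values measure the spread between these libraries, which may be technical.

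The life of an mRNA in the cytoplasm usually ends with the shortening of its poly(A) tail, removal of the cap and digestion by exonucleases. Transcripts differ widely in how soon this happens. The mRNAs of immediate early genes, of many transcription factors and of feedback regulators are known to be short-lived, those of the replication-dependent histones end in a stem-loop in place of a poly(A) tail and are removed when DNA synthesis stops, and those of ribosomal proteins and metabolic enzymes are known to be long-lived. AU-rich elements in the 3′ UTR, with the core TTATTTATT, are bound by proteins that recruit the deadenylation machinery.

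One row per gene was followed, the transcript with the most counts. After a filter on low counts (mean CPM of 1 or more, where CPM are counts scaled to a common library size) 13422 genes were tested, of which 10955 were protein coding and 548 were lncRNA genes. The CPM given below are relative to the counts of these gene rows after TMM scaling. A slope is the change of log2 CPM per hour of chase relative to the bulk of the library. A slope of 0 is the course of a typical gene, and a positive slope is a rise against it, as slower loss gives. Whether slower loss alone gave the steep late rises was not tested. An early slope (0-4 h) and a late slope (4-10 h) were fitted as 2 straight segments that meet at 4 h, and therefore share the 4 h libraries. In these bulk libraries, fewer cells of a kind and less RNA per cell cannot be told apart.

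The libraries held 55381420 to 96963584 counts over all transcript rows, and the 2 libraries of each time differed by more than sampling noise (chi-square per degree of freedom 3.83 to 18.4) with a Pearson r of log2 CPM across genes of 0.9885 to 0.9952. ZNF598 had 34 to 86 counts in the 10 knockdown libraries and 200 to 630 in the 10 control libraries of the same times. The groups did not overlap, and the difference averaged over the 5 times was -3.06 log2 units (adjusted p = 4.33e-17, edgeR quasi-likelihood test). Of the markers of the line, VIM, LIN28B, KRT8, KRT18 and ENO2 had between 5.87 and 136.8 CPM over all rows and the neuronal gene NEFM 0.953. ACTA1, a muscle gene, was at 1.98 CPM, and the other 12 genes of leukocytes, hepatocytes, erythroid cells, muscle, keratinocytes and fibroblasts were at 0.219 CPM or below.

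The sequences below belong to the patterns described after them. The first are stem-loop matches in 3′ UTRs of histone mRNAs. They are shown because all 51 tested genes of the replication-dependent histone list had a lower slope over 0-10 h. Of 50 replication-dependent histone genes in the tested set whose transcript had a 3′ UTR in GENCODE release 44, the stem-loop pattern was found in 39. The whole 3′ UTR was searched, so a match need not lie at the end of the transcript. That of H4C8 lies in a 3′ UTR of 1712 bases. The sites of the 6 genes with a match and the lowest slopes are shown 5′ to 3′ on the transcribed strand, with the stem-loop match in capitals (hg38).
H2AC7: taacaaaGGCTCTTTTCAGAGCCaccca
H2AC15: ccaaaaaGGTTCTTTTCAGAGCCaccta
H4C5: aatcaaaGGCCCTTTTCAGGGCCgccca
H4C8: aaccaaaGGCCCTTTTCAGGGCCgcccact
H4C1: aaccaaaGGCCCTTTTCAGGGCCgccca
H2BC17: atccaaaGGCTCTTTTCAGAGCCactcac

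All 6 lie in 3′ UTRs on chromosome 6, that of H2AC7 at chr6:26198784-26198811 on the minus strand and that of H4C5 at chr6:26204994-26205021 on the plus strand. The others are copies of TTATTTATT in 3′ UTRs, which 1024 of 10109 protein-coding genes with a 3′ UTR held (10.1%). The motif was searched on the transcribed strand only. The 6 with the lowest slopes over 0-10 h among the holders considered are shown with the nonamer in capitals. Only holders with a slope called lower were considered, and those on some chromosomes were left out.
C21orf91: atatcacctcTTATTTATTatgagcaata
TIFA: aaataaaaatTTATTTATTtaagatactt
C16orf87: tgaatgtaatTTATTTATTagctaaaaaa
B3GNT5: tgtgaaacaaTTATTTATTtgctgaaaga
ZBTB6: attatttataTTATTTATTcctgttcagt
GOLPH3L: attaaatgaaTTATTTATTcatttctctc

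The following 3 holders are shown because they fell steeply in the first 4 h and then rose against the bulk. They were chosen after their values were seen. Only the first copy is in capitals, and copies that overlap it, as in IER5, are not marked.
IER5: gtgtcttcctTTATTTATTtatttattta
PELO: acatgctataTTATTTATTtatttttttg
TIPARP: aggattctatTTATTTATTtacgtttgat

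These sites lie in 3′ UTRs, that of IER5, an immediate early gene, at chr1:181092443-181092471 (plus strand). The site of PELO, a ribosome rescue factor, is at chr5:52802673-52802701 (plus strand) and that of TIPARP at chr3:156705515-156705543 (plus strand).

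The slope over 0-10 h differed from the bulk at an adjusted p below 0.05 in 9567 of 13422 genes (71.3%). It was lower in 5384 (40.1%) and higher in 4183 (31.2%). The middle of the distribution was narrow, with quartiles of -0.103 and 0.0697 log2 per hour and a median of -0.0238, and the 1st and 99th percentiles were -0.262 and 0.246. Scaling by the total count in place of TMM moved the median slope to -0.11 and the median late slope from -0.00692 to -0.128, so that 8821 of the called slopes were lower and 1805 higher in place of 5384 and 4183. With DESeq2 size factors 4627 slopes were lower and 4652 higher, so the larger side depends on the scaling. Under the total count the late slope was called lower in 8807 genes and higher in 1491. Counts of gene lists under the total count, given below, are to be set against these counts of all 13422 genes. The 100 rows with the most counts took 21.6% and 23.2% of the gene counts at 0 h and 42% and 44.4% at 10 h. All slopes below are therefore relative to the typical gene, and are rates of change against it rather than half-lives.

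A single line did not describe the time course of many genes. A test of departure from a straight line passed for 6738 genes (50.2%). The early slope was called in 6951 genes (51.8%), lower in 3864 (28.8%) and higher in 3087 (23%), and the late slope in 8207 (61.1%), lower in 4178 (31.1%) and higher in 4029 (30%). The change of slope at 4 h was called in 4555 genes (33.9%), of which 2595 turned upward (19.3%) and 1960 downward (14.6%). The early and late slopes had a Pearson r of 0.138 and a Spearman rho of 0.308 across the 13422 genes. These values are a description, since both slopes use the 4 h libraries.

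The widest changes belonged to genes that fell steeply in the first 4 h and then rose against the bulk. JUN, a subunit of the AP-1 factor (chr1:58780791-58784047), had 329 and 310 CPM in the 2 libraries at 0 h, 75 and 74.3 at 2 h, 28.5 and 26.5 at 4 h, 35.4 and 38.3 at 6 h and 92.4 and 131 at 10 h. The 4 h libraries were the lowest and did not overlap with those of any other time. From 0 to 4 h JUN fell 11.6-fold, an early slope of -0.91 ± 0.040 log2 per hour (SE, adjusted p = 1.9e-09), and from 4 to 10 h it rose 4.06-fold against the bulk, a late slope of 0.36 ± 0.027 (adjusted p = 3.7e-07). Its line over all 10 h had a slope of -0.13 ± 0.077 with an adjusted p of 0.14. The single line therefore did not call JUN.

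RHOB, a small GTPase whose mRNA is induced by growth factors and stress, followed the same course. It had 88.4 and 87.7 CPM at 0 h, 32.8 and 28.1 at 2 h, 6.24 and 6.56 at 4 h, 8.33 and 11 at 6 h and 24.3 and 35.6 at 10 h. TXNIP, an inhibitor of thioredoxin, had 98.3 and 103 CPM at 0 h, 15.7 and 17.1 at 2 h, 7.04 and 7.66 at 4 h, 12.3 and 14.6 at 6 h and 30.5 and 33.1 at 10 h. Both were lowest at 4 h, and at 10 h both were still below 0 h. The early fall was 13.8-fold for RHOB and 13.7-fold for TXNIP, and the later rise against the bulk was 4.68-fold and 4.33-fold. The change of slope was 1.31 ± 0.079 log2 per hour for RHOB (adjusted p = 2.7e-08) and 1.31 ± 0.092 for TXNIP (adjusted p = 1.4e-07).

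The other genes with the largest upward change were SOX4, ID3, ID2, DDIT4 and GAS1, with changes between 1.06 and 1.23. SOX4 is a developmental transcription factor, ID2 and ID3 are inhibitors of basic helix-loop-helix factors, DDIT4 is a stress-induced inhibitor of mTORC1 signalling and GAS1 is a surface protein first known from growth-arrested cells. SOX4 fell 9.56-fold by 4 h and then rose 5.56-fold, the largest rise of the 8. None of the 8 had a slope over 0-10 h that passed the threshold, with adjusted p between 0.051 and 0.41. Under scaling by the total count the change stayed called for all 8, between 0.968 and 1.22, and so did the late rise, with late slopes of 0.163 to 0.276 log2 per hour.

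**Figure D1:**
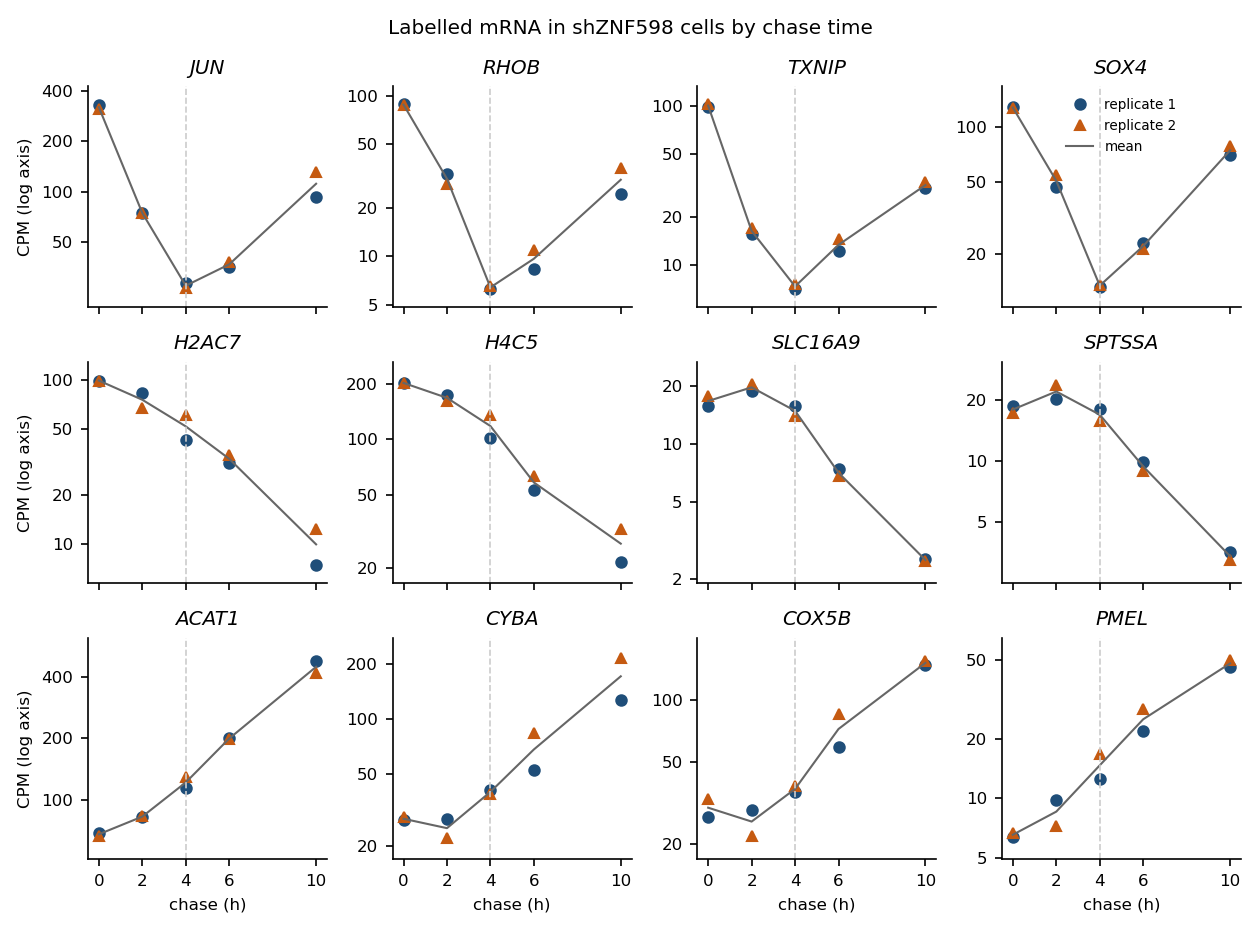
CPM (log axis) against hours of chase in shZNF598 cells for 12 genes, with circles for replicate 1, triangles for replicate 2, a line through their means and a dashed line at 4 h. JUN, RHOB, TXNIP and SOX4 (top row) are lowest at 4 h, H2AC7, H4C5, SLC16A9 and SPTSSA (middle row) are lowest at 10 h, and ACAT1, CYBA, COX5B and PMEL (bottom row) are highest at 10 h.

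The early fall was shared by a large class. Among protein-coding genes, 455 had a called early slope below -0.5. Their median was 20.9 CPM at 0 h, 4.32 at 4 h and 7.32 at 10 h, and the median gene kept 0.215 of its 0 h level at 4 h and 0.334 at 10 h. The late slope was higher in 246 of the 455, lower in 9 and not called in 200, while a higher late slope was called in 30% of all genes tested. The median late slope of the class was 0.109 with TMM and -0.0122 under the total count (83 higher, 75 lower), where the median of all genes was -0.00692 and -0.128. The members were chosen by the early slope, so the change of slope that 454 of them showed is a description. In shControl cells, whose libraries had no part in the choice, the median early slope of the same 455 genes was -0.57 and the median late slope 0.0845, against -0.58 and 0.109 in shZNF598 cells.

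Over all 13422 tested genes, the early slope was called lower and the late slope higher in 713, and in 156 under scaling by the total count. When only the 5034 genes at 10 CPM or more over all transcript rows were fitted, both calls were made in 59, and the cause of this lower share was not tested.

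Immediate early genes are transcribed within minutes of a stimulus and code for transcription factors and regulators. Of 20 genes of the list, 8 passed the filter on low counts, and all 8 had a called lower early slope, with 6 higher and none lower in the late phase (5 higher and 1 lower under scaling by the total count). Their median slopes were -0.62 early and 0.29 late, against 0.0132 and -0.00692 over all genes tested. MYC fell 5.76-fold by 4 h (early slope -0.60 ± 0.065, adjusted p = 2.1e-06) and regained 4.81-fold (late slope 0.40 ± 0.046, adjusted p = 3e-06), so that its slope over 0-10 h was 0.0027 (adjusted p = 0.97). The change of slope was higher in all 8. The late slopes of JUND and ATF3 did not pass, at -0.030 (adjusted p = 0.65) and 0.081 (adjusted p = 0.21).

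Inhibitory and feedback regulators of transcription resembled them. Of 11 tested ID, HES and inhibitory SMAD genes, 9 had a lower early slope and 9 a higher late slope, with medians of -0.62 and 0.19 (late 0.0695 and 6 higher under the total count). HEY1, a Notch target, fell 6.11-fold by 4 h, and its late slope did not pass (0.017, adjusted p = 0.63). The early slopes of HES4 and HES6 were not called, at -0.0051 and 0.087. The 6 tested TTP family and BTG/TOB genes, which encode proteins that recruit deadenylases, all had a lower early slope, and 5 had a higher late slope (3 under the total count). BTG2 was at 19.7 and 17.2 CPM at 0 h, 1.56 and 1.88 at 4 h and 8.22 and 10.3 at 10 h. All 12 tested KLF and SP factors had a lower early slope. Their late slope was higher in 5 and lower in 1, with a median of 0.066 that became -0.056 under the total count (1 higher, 4 lower). SP1 fell in both phases, with slopes of -0.23 and -0.12.

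Zinc finger genes, most of them DNA-binding factors with C2H2 fingers, were the longest of these lists. Of 314 tested genes with a ZNF symbol, 283 had a lower early slope and 4 a higher one, with a median of -0.35. The late slope was higher in 120 and lower in 34 with a median of 0.049, where 30% and 31.1% of all genes were. Under the total count it was higher in 26 and lower in 145, where 1491 and 8807 of all 13422 genes were. Both shares then lay below those of all genes. The median was then -0.073, against -0.128 over all genes. ZNF627 had 23.7 and 25.9 CPM at 0 h, 3.49 and 3.79 at 2 h, 1.6 and 1.88 at 4 h, 2.14 and 2.13 at 6 h and 3.39 and 3.69 at 10 h, the lowest early slope of all genes tested at -0.99 ± 0.066 (adjusted p = 2.6e-08). Not all followed. ZNF525 and ZNF124 rose over the chase with slopes of 0.20 and 0.21, and ZNF24, the most abundant member, declined through both phases from 470.7 to 157 CPM. The 34 tested ZBTB genes had a median early slope of -0.40, and 32 were lower. Their late median was 0.068 and became -0.053 under the total count. ZBTB6 fell from 29 and 28.6 CPM at 0 h to 2.48 and 3.18 at 4 h. ZNF and ZBTB genes share many similar exons. Per the study's methods, reads that match several loci were dropped. Some histone copies described below had identical counts nonetheless, so reads shared between similar ZNF or ZBTB genes may remain.

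Counted by the encoded protein, genes without a C2H2 finger (9654) had a median early slope of 0.0067 and those with 1 or 2 fingers (101) of -0.19. The medians were -0.33 with 3 to 5 fingers, -0.38 with 6 to 10, -0.37 with 11 to 15 and -0.36 with 16 or more (74, 131, 105 and 62 genes). The medians fell up to the class of 6 to 10 fingers and were about level from there. The late medians went from -0.028 without fingers to 0.0726 with 16 or more, on the TMM scale. In shControl cells the early medians of the same classes were 0.013, -0.20, -0.35, -0.37, -0.39 and -0.36. None of the 10 genes whose slope differed between the hairpins, described at the end, was in a class with fingers or on the ZNF or ZBTB lists. Only 9 of the 9654 genes without a finger and 0.0745% of all genes were called. At such shares, classes of these sizes would hold few or none, so the count says nothing about finger genes.

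**Figure D2:**
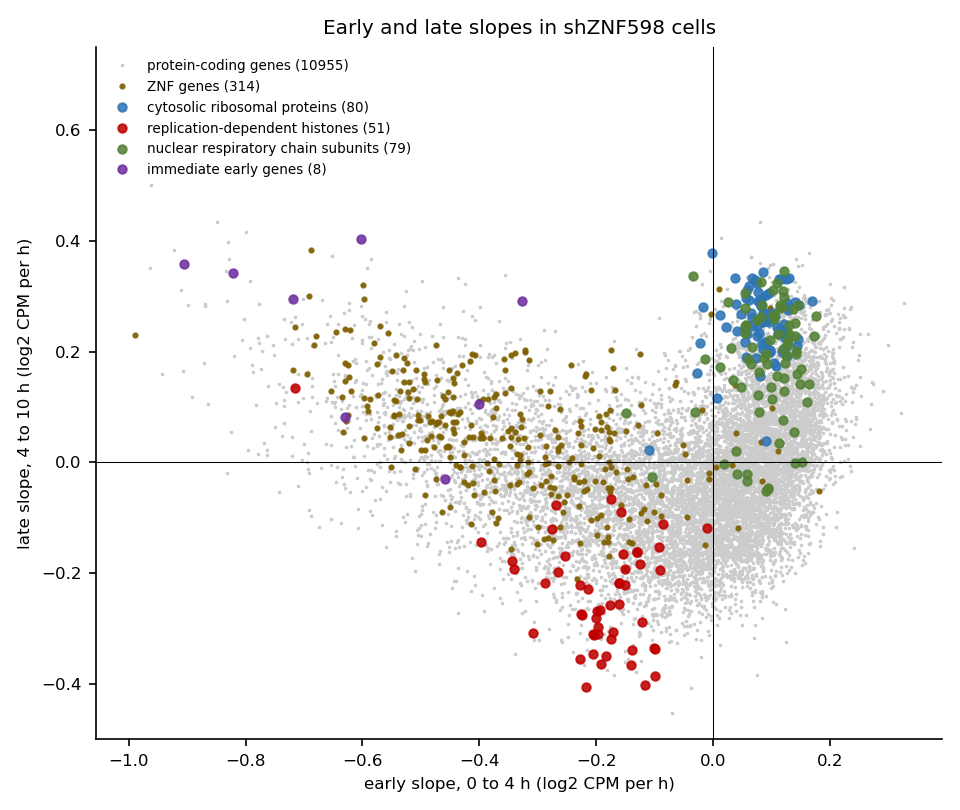
Late slope (4 to 10 h) against early slope (0 to 4 h), both in log2 CPM per hour, for 10955 protein-coding genes in shZNF598 cells (grey), with 5 gene lists in colour. Immediate early and ZNF genes spread to the left of 0 and mostly above it (the late median of ZNF genes turns negative under the total count), all histones but H3C6 lie in the lower left, and most ribosomal protein and respiratory chain genes lie in the upper right.

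The replication-dependent histones, which package newly made DNA, declined in both phases with few exceptions. All 51 tested genes of the list had a lower slope over 0-10 h, 45 a lower early slope and 50 a lower late slope, with medians of -0.24, -0.18 and -0.26. Their summed share of the gene counts was 1.18% and 1.26% at 0 h, 0.622% and 0.779% at 4 h and 0.135% and 0.204% at 10 h. H2AC7, an H2A gene with the stem-loop shown above (chr6:26198784-26199293), had 98.5 and 98.6 CPM at 0 h, 83.1 and 67.6 at 2 h, 42.9 and 61 at 4 h, 30.9 and 35 at 6 h and 7.5 and 12.4 at 10 h. Each time lay below the one before it without overlap. Its slope of -0.33 ± 0.028 was the most negative of the called protein-coding genes with at least 10 CPM on the scale of the gene rows (adjusted p = 1.2e-06), and its late slope (-0.41) was steeper than its early slope (-0.22), with an adjusted p of 0.046 for the change.

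The gene of the list with a higher late slope was H3C6, named here after its values were seen. It had 31.6 and 34.2 CPM at 0 h, 4.2 and 4.69 at 4 h and 8.48 and 8.43 at 10 h (late slope 0.13, adjusted p = 0.00099). Under the total count no late slope of the list was called higher. The row followed for it has 2 exons, a 3′ UTR of 1908 bases with 4 non-overlapping copies of TTATTTATT, and a stem-loop match.

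H4C5 fell too, from 202 and 202 CPM at 0 h to 101 and 135 at 4 h and 21.6 and 32.9 at 10 h, and H2AC15 fell evenly through both phases (-0.31 and -0.31). The slowest of the list were H2AC14 (-0.10) and H3C10 (-0.076). The 39 genes with a stem-loop match had a median slope of -0.23 and the 11 without a match to this pattern of -0.24. The list counts genes whose reads cannot be kept apart: H3C14 and H3C15 had identical counts, as had H2AC18 and H2AC19, H4C14 and H4C15 had nearly the same, and the row of ENSG00000282988 (slope -0.31), a coding gene model named by GENCODE at chr6:26195595-26199293, spans that of H2AC7.

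Other genes with the lowest slopes were neither histones nor steady. FBXO5, an inhibitor of the anaphase-promoting complex, had 64.3 and 70 CPM at 0 h, 33.2 and 36.7 at 2 h, 11 and 11.5 at 4 h, 7.54 and 7.53 at 6 h and 8.16 and 8.71 at 10 h. Its decline was nearly complete by 6 h (early slope -0.69, late slope -0.086 with an adjusted p of 0.063). FAM220A, KBTBD4, C3orf38 and FASTKD3 had the same shape, with early slopes of -0.61 to -0.69 and late slopes of -0.096 to -0.12. ZCCHC10 instead fell at the same rate throughout (-0.30 and -0.32), from 55.3 and 54.7 CPM to 8.42 and 6.91. LYSMD3 and GSKIP lay between.

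A further class held its level for 4 h and fell after it. SLC16A9, a carnitine transporter of the plasma membrane, had 15.8 and 17.8 CPM at 0 h, 18.9 and 20.7 at 2 h, 15.8 and 14.1 at 4 h, 7.41 and 6.82 at 6 h and 2.54 and 2.46 at 10 h. Its early slope was -0.070 (adjusted p = 0.22) and its late slope -0.45 ± 0.039 (adjusted p = 6e-07). With the 2 segments meeting at 6 h instead of 4 h, its change of slope was no longer called (adjusted p = 0.079). SPTSSA, a small subunit of serine palmitoyltransferase, followed it with a late slope of -0.41.

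FMNL2, a formin, rose from 16.3 and 16.2 CPM at 0 h to 31.5 and 29.2 at 4 h and was back at 18.7 and 14.8 at 10 h, so that its slope over 0-10 h was -0.0055. The same turn was seen in PBK, MOB4, STARD4, RALGPS2 and HS2ST1, with changes of slope between -0.355 and -0.387. The early rise passed for FMNL2, PBK, RALGPS2 and HS2ST1 and not for MOB4 and STARD4. Among 28 tested cyclins and mitotic regulators the late slope was lower in 15 and higher in 2, where 31.1% and 30% of all genes were. Their early slope was lower in 8 and higher in 7, near the 28.8% and 23% of all genes. CDK1, the mitotic kinase, was at 153 and 157 CPM at 0 h and still at 160 and 160 at 4 h, then fell to 42.9 and 39 by 10 h (late slope -0.33 ± 0.020, adjusted p = 1.2e-07). TOP2A, the topoisomerase of dividing cells, rose early and fell late (0.16, adjusted p = 0.0064, and -0.18, adjusted p = 0.00012). CENPE and CENPF, motor and kinetochore proteins, rose over the chase (0.12 and 0.099).

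The highest median slopes over 0-10 h belonged to the lists of cytosolic ribosomal proteins, glycolytic enzymes and the respiratory chain. Of 80 cytosolic ribosomal protein genes, 78 had a higher slope over 0-10 h and none a lower one, with a median of 0.19. The late slope was higher in 78 (median 0.25) and the early slope in 30 (median 0.084). Together they took 2.33% and 2.3% of the gene counts at 0 h and 4.74% and 4.74% at 10 h. RPLP0, a stalk protein, had 546 and 566 CPM at 0 h, 713 and 732 at 4 h and 2629 and 2882 at 10 h. RPL28 was the exception at the low end, with a slope of -0.028 (adjusted p = 0.16). The rows followed for RPL28 and for RPS16, the other gene not called, are annotated as retained-intron transcripts.

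Of 79 tested nuclear genes for subunits of the respiratory chain and ATP synthase, 68 had a higher slope and 1, UQCRFS1, a lower one, with a median of 0.16 (55 higher, 10 lower and 0.072 under the total count). COX5B, a cytochrome c oxidase subunit, went from 27.1 and 33 CPM at 0 h to 148 and 153 at 10 h, a 5.01-fold gain on the bulk that came mostly after 4 h. Of 17 glycolytic enzymes 13 were higher, GAPDH among them with 1289 and 1306 CPM at 0 h and 4922 and 5646 at 10 h, and 1, HK2, was lower (10 higher and 3 lower under the total count). Of 77 mitochondrial ribosomal protein genes 39 were lower and 15 higher, where 40.1% and 31.2% of all genes were. Their median was -0.041, and -0.127 under the total count. There 66 were lower and 1 higher, where 8821 and 1805 of all 13422 genes were. MRPL44 fell from a mean of 43.1 to 7.03 CPM and MRPL23 rose from 27.4 to 72.4.

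Genes of the secretory pathway had high slopes as well. In the list of ER chaperones and oligosaccharyltransferase subunits 18 of 22 had a higher slope and 3 a lower one (11 and 4 under the total count). RPN2, an oligosaccharyltransferase subunit, rose 5.04-fold against the bulk over 10 h, from 199 and 210 to 1096 and 964 CPM. The late median of this list was 0.12 and became -0.0049 under the total count. The ER chaperone HSPA5 had a lower slope of -0.13, and its 2 h libraries differed widely (138 and 259 CPM). CANX, a lectin chaperone, went from 1090 and 1063 CPM to 2941 and 2516. Of 27 lysosomal genes 21 were higher and 1, SMPD1, was lower, with a median of 0.13 (13 higher, 5 lower and 0.0447 under the total count). The acid glucosidase GAA went from 15.3 and 17.8 CPM at 0 h to 72.2 and 83.8 at 10 h.

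The most positive slopes of called protein-coding genes with at least 10 CPM on the scale of the gene rows were those of PMEL, IFI6, ACAT1, CYBA, IGFBP2 and MAMDC4, followed by APOE, FBLN1, SLC22A17, CPVL, SERF2 and COX5B. ACAT1, a mitochondrial thiolase of ketone body and isoleucine metabolism, had 69.2 and 67 CPM at 0 h, 82.8 and 83.3 at 2 h, 115 and 129 at 4 h, 200 and 199 at 6 h and 477 and 416 at 10 h. No libraries of different times overlapped. Its slope was 0.28 ± 0.013 (adjusted p = 2e-07), a 6.55-fold gain on the bulk. IGFBP2, APOE, FBLN1 and CPVL encode secreted or vesicular proteins and IFI6 is an interferon-inducible mitochondrial protein. CYBA, a subunit of NADPH oxidase, varied more between the libraries at 10 h (127 and 214 CPM) than ACAT1 did.

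Of the 8 genes of the TRiC/CCT chaperonin 7 had a higher early slope, while in the late phase 3 were higher and 2 lower. Of 20 aminoacyl-tRNA synthetases 13 were higher and none lower early, and 7 were higher and 7 lower late, near the share of all genes in each direction (30% and 31.1%). The median slopes of the 2 lists over 0-10 h of 0.043 and 0.012 became -0.042 and -0.075 under the total count. Of 40 proteasome subunits 24 were higher over 0-10 h and 9 lower, where 31.2% and 40.1% of all genes were. Their slopes went from PSME1 at 0.24 to PSMD12 at -0.23. The median of 0.055 became -0.031 under the total count. Of 14 heat shock chaperones 3 were lower and 4 higher over 0-10 h, where 40.1% and 31.2% of all genes were. Under the total count 10 were lower and 0 higher, where 8821 and 1805 of all 13422 genes were. DNAJB1, an HSP40 co-chaperone, fell 6.29-fold by 4 h and then rose 1.77-fold (late slope 0.13, adjusted p = 0.017), while HSP90AB1 rose by 0.087 per hour.

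Of 11 genes of the integrated stress response 7 were lower and 2 higher over 0-10 h, where 40.1% and 31.2% of all genes were. Under the total count 9 were lower and 0 higher, where 8821 and 1805 of all 13422 genes were. TRIB3 and PPP1R15A had early slopes of -0.43 and -0.45 and late slopes of 0.012 and -0.0083, and ASNS and PHGDH, enzymes of amino acid synthesis, rose by 0.087 and 0.11. Of 23 genes of cholesterol synthesis and uptake 13 were lower and 4 higher over 0-10 h, where 40.1% and 31.2% of all genes were. Under the total count 18 were lower and 0 higher, where 8821 and 1805 of all 13422 genes were. Their early slope was lower in 5 and higher in 4, where 28.8% and 23% of all genes were. Over 0-10 h MSMO1 was at -0.27 and FDPS at 0.10. The rows of CYP51A1 and ASNS overlap gene models with nearly the same counts.

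Of 35 mRNA decay factors 20 were lower and 6 higher over 0-10 h, where 40.1% and 31.2% of all genes were. Under the total count 29 were lower and 2 higher, where 8821 and 1805 of all 13422 genes were. SMG8, of the nonsense-mediated decay kinase complex, fell from 97.5 and 92.9 CPM at 0 h to 19.5 and 21.5 at 4 h and to 18.5 on average at 10 h, and PAN2 and SKIC2 rose (0.16 and 0.14). Among 26 factors of ribosome collision and rescue 8 were lower and 8 higher, where 40.1% and 31.2% of all genes were. Under the total count 16 were lower and 0 higher, where 8821 and 1805 of all 13422 genes were. EIF4E2, the cap-binding partner of GIGYF proteins in translational repression, had a slope of -0.20 and GCN1 of 0.10. The snoRNA host genes, whose spliced transcripts carry small nucleolar RNAs in their introns, had a higher late slope in 19 of 22. Of all genes, 30% had one. Under the total count, where 1491 of all 13422 genes had one, 8 of the list did. Their early slope was lower in 5, where 28.8% of all genes were lower. SNHG29 went from 140 and 147 CPM at 0 h to 499 and 459 at 10 h, while SNHG16 fell from 181 and 179 to 111 and 106. The median slope of the list over 0-10 h of 0.075 became -0.0093 under the total count.

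**Figure D3:**
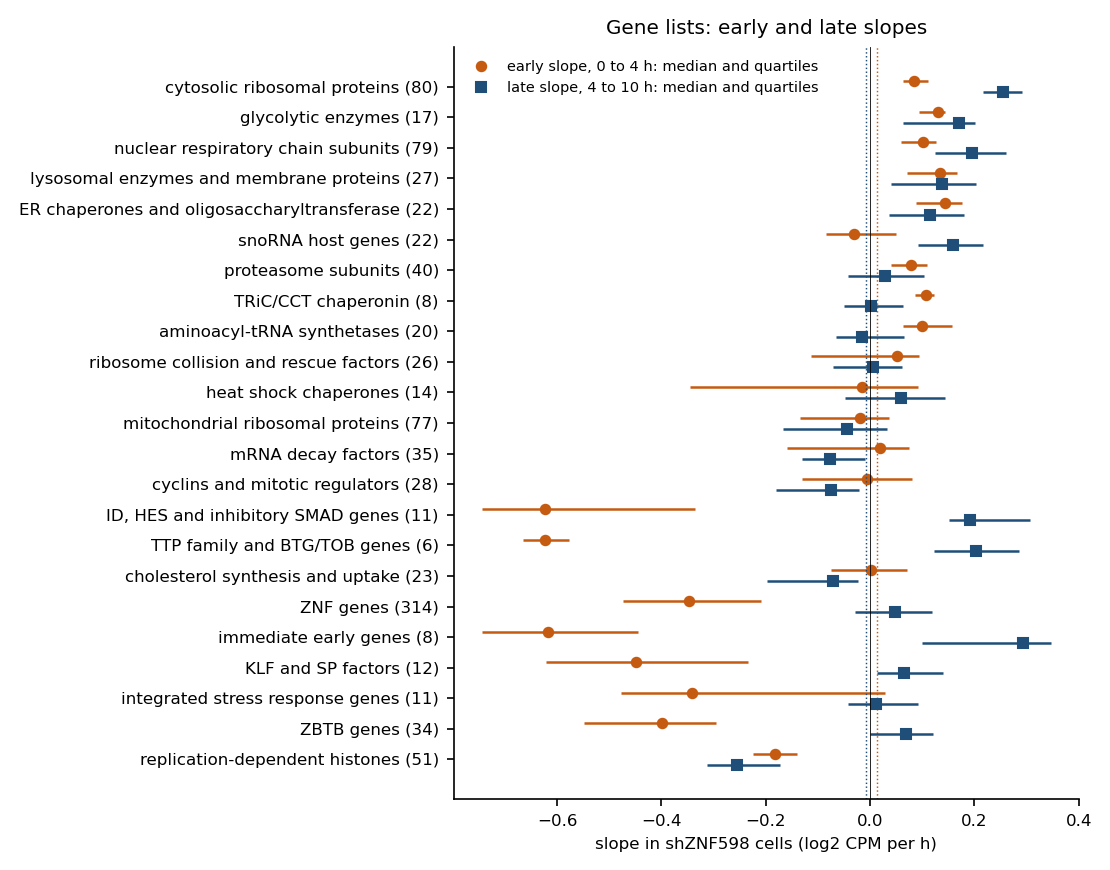
Median and quartiles of the early (circles) and late (squares) slopes in shZNF598 cells for 23 gene lists, ordered by the median slope over 0-10 h, with the number of genes tested in brackets. Dotted lines are the medians of all genes tested. The immediate early, ID/HES, TTP/BTG, KLF/SP, ZNF and ZBTB lists lie far left in the early phase and right of 0 in the late phase on the TMM scale, where the late medians of the KLF/SP, ZNF and ZBTB lists turn negative under the total count.

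Features of the transcript went with the early and late phases in different ways. The number of exons had a Spearman rho of 0.40 with the early slope and of 0.30 with the slope over 0-10 h across 10955 protein-coding genes. Genes with 1 exon (240) or 2 exons (425) had median early slopes of -0.28 and -0.29, and the medians rose through -0.072, -0.014 and 0.018 to 0.083 for 21 or more exons (1569 genes). Abundance in the arm went with the early slope too (rho 0.41). It is the mean over the same libraries as the slope, and an early fall lowers that mean, so the 2 are not independent. All these correlations are across genes, which share libraries and are not independent replicates. The length of the gene had a rho of 0.138 with the early slope, -0.162 with the late slope and 0.006 with the slope over 0-10 h.

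The length of the 3′ UTR had a rho of -0.29 with the slope over 0-10 h (10109 genes). The median slope was 0.039 in the class of the shortest UTRs (11 to 470 bases) and -0.076 in the class of the longest, where 1216 of 2023 genes were lower. Of all 10955 protein-coding genes tested, 4949 were lower. GC content at the third codon position had a rho of 0.26 with the late slope and -0.044 with the early slope (10127 genes). The median late slope went from -0.058 at the lowest GC to 0.021 at the highest. Coding length had a rho of 0.091 with the slope.

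Genes with 1 copy of TTATTTATT (794) had a median early slope of -0.052 and those with 2 or more (230) of -0.045, against 0.0022 without it. Overlapping copies were counted here. Their 3′ UTRs were longer, with a median of 3274 bases against 1366. Within the UTR length class of 1982 to 3440 bases, the early median was -0.088 with the nonamer and -0.027 without, and in the longest class the medians were -0.047 and -0.045. In the shortest class they were 0.034 and 0.054, in the next 0.022 and 0.018, and in the middle class -0.035 and -0.011. The direction was thus not the same in every class. TGTANATA, the core of Pumilio sites, was in 32.3% of 3′ UTRs, and 2 or more copies went with an early median of -0.051 against 0.016 without. Within UTR length classes, the early medians of its holders and of the other genes were -0.0041 and 0.057 in the shortest class and -0.047 and -0.042 in the longest. The motifs were searched on the transcribed strand, and a match is a description of the sequence.

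**Figure D4:**
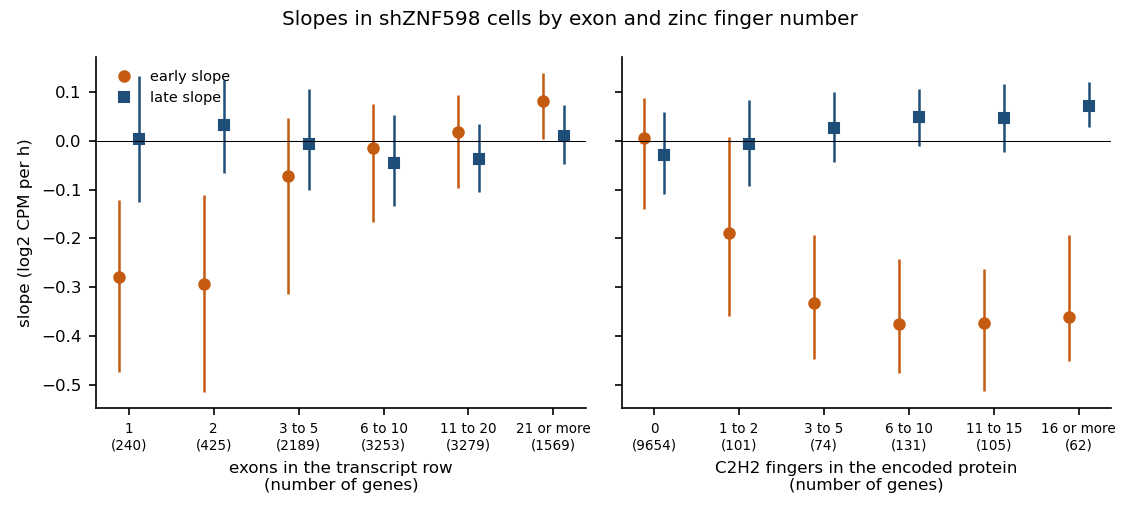
Median and quartiles of the early (circles) and late (squares) slopes in log2 CPM per hour by the number of exons (left) and of C2H2 fingers in the encoded protein (right) for protein-coding genes in shZNF598 cells. The early medians are lowest for 1 or 2 exons and for 6 or more fingers.

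The slopes were compared with those of shControl cells to show where the knockdown arm differs. Of the 9567 genes called in shZNF598 cells, 8899 were also called in shControl cells, 8892 of them in the same direction. In shControl cells the slope was called in 73.3% of all genes (41.9% lower, 31.4% higher), the early slope in 54.5% and the late slope in 62.4%. The 2 arms share no library, and the Pearson r across the 13422 genes was 0.977 for the slope, 0.97 for the early and 0.957 for the late slope. The difference between the hairpins was called in 10 genes (0.0745%), all with a lower slope in shZNF598 cells. At an unadjusted p below 0.05 there were 573 genes, 416 lower and 157 higher, and the median SE of a difference was 0.0296 log2 per hour. The early difference was called in 2 genes (0.0149%) and the late difference in 4 (0.0298%), all lower in shZNF598 cells, while without 1 of 6 of the 20 libraries, all of 0 or 4 h, no early difference was called. The difference in the change of slope was called in 0 genes by the edgeR test (137 at an unadjusted p below 0.05).

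RPN1, the partner of RPN2 in the oligosaccharyltransferase (chr3:128619969-128650818, minus strand), went furthest. On a scale common to both arms it had 218 and 215 CPM at 0 h, 194 and 179 at 2 h, 154 and 163 at 4 h, 159 and 157 at 6 h and 117 and 120 at 10 h in shZNF598 cells. In shControl cells it had 435 and 526 CPM at 0 h, 539 and 531 at 2 h, 705 and 714 at 4 h, 944 and 1110 at 6 h and 1430 and 1590 at 10 h. The arms did not overlap at any time and moved apart. The slope was -0.083 in shZNF598 cells and 0.18 in shControl cells, a difference of -0.26 ± 0.016 (adjusted p = 7.77e-09), while RPN2 differed by -0.019 (adjusted p = 1).

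LIPA, the lysosomal acid lipase, had 54.7 and 52.9 CPM at 0 h and 53.7 and 43.7 at 10 h in shZNF598 cells, against 74.7 and 83.1 at 0 h and 317 and 369 at 10 h in shControl cells (difference in slope -0.23 ± 0.018, adjusted p = 2.26e-07). RTN3, a reticulon that shapes the ER, went from 70.8 and 74.2 CPM at 0 h to 38.9 and 36.1 at 10 h, against 137 and 122 and then 264 and 271 in shControl cells (-0.21 ± 0.017, adjusted p = 2.26e-07). Both were level or falling in the knockdown and rising in the control. AK3, a mitochondrial adenylate kinase, had 12.3 and 12.3 CPM at 0 h, 4.67 and 6.39 at 4 h and 5.96 and 4.99 at 10 h, against 26 and 24.8, 35.7 and 38.9 and 42.7 and 58.8 in shControl cells. Its early slope differed by -0.45 ± 0.067 (adjusted p = 0.0119). ENSG00000278943, a gene model without a symbol, had -0.21 ± 0.022 (adjusted p = 1.47e-05).

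The other 5 genes, CETN2, MDH1, SAP18, PSMD10 and DDX46, had differences of -0.10 to -0.11 with adjusted p between 0.0168 and 0.031. CETN2, a centrin of the centriole, went from 53.9 and 52.5 CPM at 0 h to 113 and 102 at 10 h, against 44.4 and 50.9 and then 172 and 202 in shControl cells. MDH1, the cytosolic malate dehydrogenase, went from 111 and 114 to 279 and 236 CPM, against 103 and 131 and then 509 and 578. Both rose in both arms, and the 10 h libraries of the arms did not overlap. Leaving out any of the 20 libraries kept the call of RPN1, LIPA, RTN3, ENSG00000278943 and AK3 in all 20 fits. The call of CETN2 was kept in 15 of the 20 fits, that of MDH1 in 13, SAP18 in 9, DDX46 in 6 and PSMD10 in 5. The number of called genes was 5 without either 0 h library of shZNF598, without replicate 1 of shZNF598 or replicate 2 of shControl at 10 h, and 6 without replicate 1 of shControl at 2 h or replicate 2 of shZNF598 at 10 h. With the DESeq2 Wald test 53 genes were called, 52 of them lower.

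**Figure D5:**
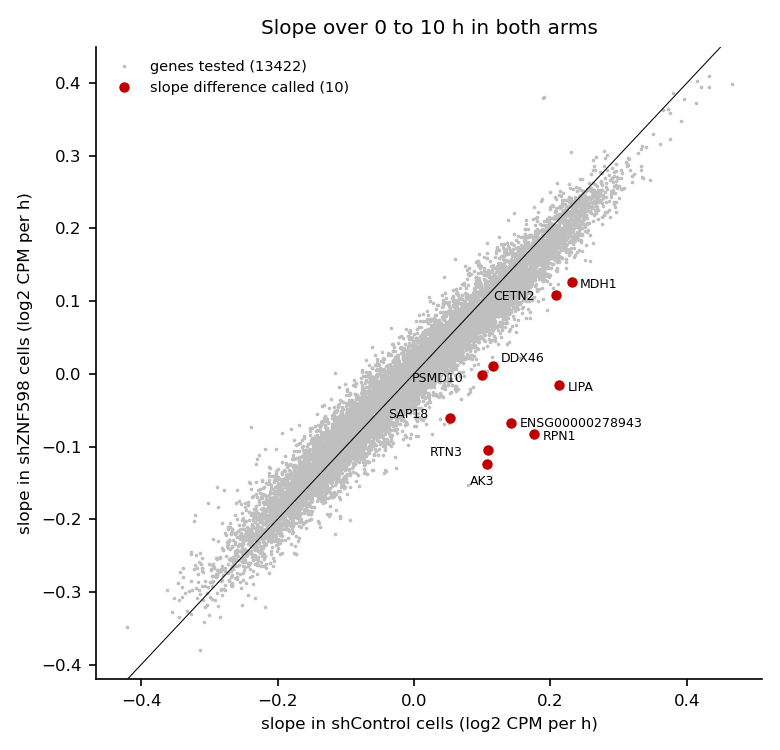
Slope over 0 to 10 h in shZNF598 cells against that in shControl cells, both in log2 CPM per hour, for 13422 genes (grey), with the 10 genes whose slope difference was called in red and the line of equal slopes in black. The 10 genes lie below the line, and of these RPN1, LIPA, RTN3, ENSG00000278943 and AK3 lie furthest from it.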

How the data were processed

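BRIC-Seq libraries of HEK293T cells were made by the authors from RNA pulled down with anti-BrdU antibody, with Ribo-Zero Gold and the TruSeq Stranded Total RNA kit, and sequenced in single-end runs. Per the study's methods, reads were trimmed with fastp, reads on noncoding RNA were removed, and the rest were aligned to hg38 with STAR (2.7.0a, per the labels, with CASAVA 1.8), keeping reads with up to 1 mismatch at 1 locus. The counts deposited by the authors are raw counts per GENCODE release 32 transcript (227264 rows). The strand setting of the counting is not given in the sources used here, so overlapping genes on opposite strands may share reads. The authors renormalised to spike-in RNAs, which was not done here, so all slopes are relative to the bulk.

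Rows were named with GENCODE release 44 (98.4% matched, and the rest held 2.23% of the counts of the knockdown libraries). The row with the most counts over the 20 libraries of 0-10 h stood for its gene and was kept at a mean of at least 1 CPM. That left 14080531 to 25254482 counts per knockdown library. The row was a protein-coding transcript in 10216 genes, and isoforms and near-identical copies may share reads. Mitochondrially encoded mRNAs were not analysed here. Slopes were fitted in the 10 knockdown libraries with edgeR 4.0.16 (R 4.3.3) by the quasi-likelihood F-test with TMM scaling and Benjamini-Hochberg adjustment over all genes, at a threshold of 0.05. The model was a line in chase hours, or 2 segments meeting at 4 h. Differences between the hairpins were the interaction terms of the same models in all 20 libraries. The median SE was 0.0207 log2 per hour for a slope, 0.0409 for an early and 0.0287 for a late slope.

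The scripts were checked on simulated counts. Alternatives were DESeq2 (1.42.0) size factors and Wald test, total-count scaling, other filters, rows, knots and time windows, a replicate term, and each library left out. Transcript features came from GENCODE release 44 sequences and annotation and were found for 10127 of 10955 protein-coding genes, in 1591 of them for another version of the transcript. Named genes were the 12 lowest and 12 highest slopes and the 8 lowest and 8 highest changes of slope among called protein-coding genes with at least 10 CPM (relative to the gene rows after TMM) and the same sign in both replicates, every called difference between hairpins, the extremes and the most abundant members of each list, and the 6 lowest called holders of a motif. Holders on some chromosomes were left out of the choice of the printed TTATTTATT sites. The genes followed and the lists were chosen with earlier results of these data known. Some items, among them a marker of the line and 1 of the gene lists, are not reported here.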

Additional observations from a re-analysis of the deposited data

Results flagged for a closer look

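The slopes of 10 genes differed between the hairpins by the test of the difference itself (edgeR quasi-likelihood test, Benjamini-Hochberg adjustment, 20 libraries). The difference is the slope in shZNF598 cells minus that in shControl cells, in log2 per hour. RPN1 had -0.259 ± 0.0163 (SE, adjusted p = 7.77e-09), LIPA had -0.228 ± 0.0182 (adjusted p = 2.26e-07) and RTN3 had -0.213 ± 0.0168 (adjusted p = 2.26e-07). ENSG00000278943 had -0.21 ± 0.0216 (adjusted p = 1.47e-05) and AK3 had -0.232 ± 0.0349 (adjusted p = 0.00445).

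Smaller differences were those of CETN2 (-0.1 ± 0.0169, adjusted p = 0.0168), MDH1 (-0.104 ± 0.0177, adjusted p = 0.0168) and SAP18 (-0.113 ± 0.0201, adjusted p = 0.0251). PSMD10 had -0.102 ± 0.0183 (adjusted p = 0.0268) and DDX46 had -0.105 ± 0.0192 (adjusted p = 0.031).

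Within the phases, the early slope differed for AK3 by -0.45 ± 0.0667 (adjusted p = 0.0119) and for RPN1 by -0.26 ± 0.0409 (adjusted p = 0.0145). Neither early call was made without replicate 1 of shControl or either replicate of shZNF598 at 0 h, nor without replicate 2 of shControl or either replicate of shZNF598 at 4 h. The late slope differed for LIPA by -0.251 ± 0.0263 (adjusted p = 4.02e-05), for RPN1 by -0.258 ± 0.0287 (adjusted p = 5.91e-05), for RTN3 by -0.238 ± 0.0278 (adjusted p = 8.58e-05) and for ENSG00000278943 by -0.239 ± 0.0376 (adjusted p = 0.00722). Groups of 2 libraries are too small for a test of single outlying samples.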

How the results depend on the processing

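The slopes are relative to the bulk of each library, and no half-life can be read from them. Under total-count scaling the median of all genes moved to -0.11 for the slope, -0.0154 early, -0.128 late and -0.0899 for the change, and the called genes were 8821 lower and 1805 higher for the slope (5384 and 4183 with TMM), 4150 and 1853 early (3864 and 3087), 8807 and 1491 late (4178 and 4029) and 4703 and 1507 for the change (1960 and 2595). DESeq2 size factors gave 4627 lower and 4652 higher slopes, 3600 and 3824 early and 3575 and 4518 late. The genes called lower early and higher late went from 713 to 156 under the total count, to 59 among genes with at least 10 CPM over all rows (the cause was not tested) and to 2629 among all transcript rows. With at least 10 CPM, where fewer genes (5034) are tested, the called slopes were 4072, early slopes 1914, late slopes 3667 and changes 1528. Over all transcript rows, of which more are tested, they were 55993, 33126, 45801 and 17982. With the single 24 h library the called slopes were 3512. With the DESeq2 Wald test 53 slope differences were called.

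Leaving out 1 library at a time gave 8848 to 9525 called slopes, 5801 to 7355 early, 7136 to 8478 late, 3282 to 5120 changes, 4989 to 7026 departures from a line and 482 to 738 genes lower early and higher late. Slope differences numbered 5 to 11, early differences 0 to 2, late differences 3 to 5, differences in the change 0 to 0, and the ZNF598 difference was -3.12 to -3.01. The early difference was called in 0 genes without replicate 1 of shControl or either replicate of shZNF598 at 0 h, and without replicate 2 of shControl or either replicate of shZNF598 at 4 h. It was called in 1 gene without the other shControl library of either time.

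The sources used here do not say what the replicate numbers stand for, and the libraries showed no steady pairing by number. Deviations of same-numbered libraries correlated between -0.289 and 0.344 in shZNF598 cells and between -0.151 and 0.429 in shControl cells, and not every library correlated best with its own number. With the replicate block, 9331 slopes, 6702 early slopes, 8027 late slopes, 4227 changes and 691 genes lower early and higher late were called, with 10, 2, 4 and 0 differences between the hairpins and a ZNF598 difference of -3.06. Among the named genes no value reversed. Of the 440 values of 24 genes for the slope, 8 lost the call, all with the 24 h library. Of 278 values of 16 genes for the change, 1 lost it, SLC16A9 with the segments meeting at 6 h (-0.273). Of 220 values of the 10 genes for the difference, 52 lost it.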

Other observations

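Noncoding genes were followed in the same table. The 548 lncRNA genes had a median slope of 0.0023 log2 per hour, with an early median of -0.054 (187 lower, 57 higher) and a late median of 0.052 (95 lower, 233 higher). Of 1487 processed pseudogenes, copies of mRNAs inserted in the genome, 984 had a higher slope and 210 a lower one, with a median of 0.12. Their reads can come from the parent gene, so their values are uncertain.

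Some rows were not annotated as protein-coding transcripts. The 374 rows annotated as targets of nonsense-mediated decay had a median slope of -0.032, an early median of -0.0060 and a late median of -0.0088, against -0.040, -0.0024 and -0.021 over all protein-coding genes tested.

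At 24 h, where each hairpin had a single library and no test was made, ZNF598 had 84 counts of 40157613 in shZNF598 cells and 86 counts of 21220829 in shControl cells.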
